A study of Sus scrofa with 63 samples.

Results

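Genes named as CD antigens, the numbered cell surface proteins by which leukocytes and their neighbours are classified, were followed in pig skin after exposure to sulfur mustard. A gene was included if its symbol in the array annotation starts with CD and a digit, with CD163 left out, and was read from the brightest of its probe sets that carry 1 symbol. The rule found 41 genes, carried by 67 probe sets, among 6765 genes with 1 symbol and 23999 probe sets tested. Sulfur mustard is an alkylating agent that blisters skin. Female Yorkshire crossbred pigs were depilated, and 400 µL of neat agent lay on ventral skin for 8 min, which gave lesions 3 cm across. RNA from 8 mm biopsies was measured on 63 Affymetrix Porcine arrays at 9 times, namely 1, 2 and 4 h, then 24, 48 and 72 h, and last 168, 336 and 514 h. The exposed group held 3 arrays of lesion sites at each time. The control group held 3 arrays a time of unexposed sites on the same animals, which carried lesions elsewhere. The sham group held 1 array a time from a further animal that was prepared in the same way but met no agent. The age of the animals is not given in the sources used here, and the design text gives the last time as 21 d where the labels give 514 h.

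CD antigens classify cells by what those cells display. CD3 chains and CD8B belong to T cells, while CD2 and CD8A lie on T and NK cells. CD14 is the lipopolysaccharide co-receptor of monocytes and macrophages, and CD34 lies on vessel endothelium and on some dermal stromal cells. Others do not mark 1 cell type in skin: the tetraspanins CD9, CD63, CD81 and CD151, the complement shields CD46, CD55 and CD59, and CD47, CD58, CD99 and CD164 are made by many cells, keratinocytes included.

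Values are log2 signals as the authors deposited them, and array medians ran from 7.75 to 7.862. Every adjusted p comes from a limma fit of all 63 arrays with Benjamini-Hochberg adjustment over all 23999 probe sets, ± is the standard error of a difference, and a gene passed the test at an adjusted p under 0.05. Per the protocols 3 animals a time gave both exposed and control sites. Exposed and control arrays of the same number are called pairs below: at all 9 times they shared a day of sacrifice, number 3 on a day of its own and numbers 1 and 2 on one day, while the labels do not say which number is which animal. Where a fit with these numbers as a block changed a call, its adjusted p is given beside the result. The deviations of same-numbered arrays from their group means correlated by 0.28, -0.13 and -0.02 at 24 h and by -0.18, 0.12 and -0.34 at 48 h. At 168 h the correlations were 0.13, 0.22 and 0.09, and at 2 h -0.38, 0.43 and 0.62. Pair counts and block results that use these times, and so those of all 3 windows, rest on a weak or uneven pairing.

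No CD antigen gene passed the test within 4 h, and from 24 to 168 h most of those that passed were higher in exposed skin. In a biopsy, fewer cells of a type and less RNA per cell cannot be told apart. At 1, 2 and 4 h 0 of 41 members passed in limma, while 1.2%, 0.392% and 1.45% of all probe sets did, and 1, 0 and 0 members had an unadjusted p under 0.05. At 24 h 10 members rose and 3 fell, where 14.4% of probe sets rose and 12.7% fell. At 48 h 12 rose and 1 fell (5.84% and 4.11% of probe sets). At 72 h 14 rose and 0 fell in limma (5.4% and 4.25%), and 17 had an unadjusted p under 0.05 in either direction. At 168 h 14 rose and 2 fell (9.87% and 8.06%). At 336 h 2 rose and 1 fell (2.38% and 1.66%), and at 514 h again 2 rose and 1 fell (3.7% and 2.13%). The 41 members had median differences of 0.10, 0.12 and 0.32 at the 3 times from 24 to 72 h and of 0.36, 0.28 and -0.02 at the 3 from 168 to 514 h, while the median of all probe sets lay between -0.01 and 0.00 at these times. With the numbers as a block 9 members passed at 336 h and 6 at 514 h, as did 7.23% and 9.01% of probe sets. Single arrays carry part of these counts. Without exposed replicate 1 at 168 h 10 members passed. Without control replicate 2 or exposed replicate 3 at 48 h 5 and 7 passed, and without exposed replicate 1 or 3 at 72 h 9 passed each. At 336 h 0 members passed without exposed replicate 1 or 2 or control replicate 1 or 3, and 1 without control replicate 2. At 514 h 1 passed without exposed replicate 1 or 2 or control replicate 1.

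**Figure D1:**
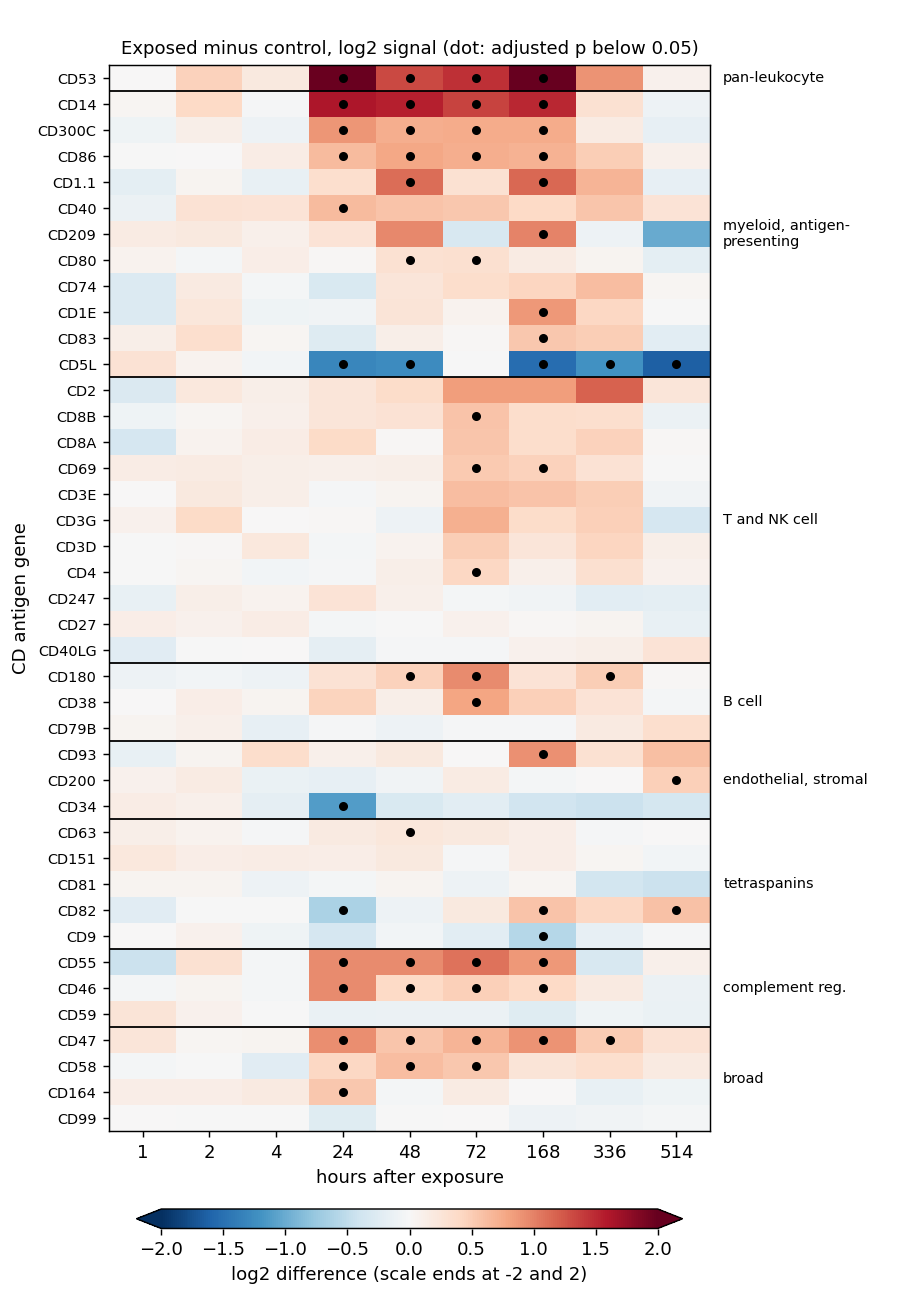
Exposed minus control difference (log2 signal, colour) of the 41 CD antigen genes (rows, grouped by role) at the 9 times in hours (columns), with a dot where a gene passed the test. CD53 and CD14 carry dots from 24 to 168 h, CD5L is lower in exposed arrays at 24 and 48 h and from 168 h on, and the T and NK cell rows hold few dots.

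Averaged over 24 to 72 h, 17 members rose and 3 fell, where 18.2% of probe sets rose and 16.9% fell. Over 168 to 514 h 15 rose and 4 fell, where 12% and 9.88% did. Over 1 to 4 h 0 passed in limma (5.48% of probe sets did), with 3 members at an unadjusted p under 0.05. Without 168 h the last window held 5 members that passed (11.2% of probe sets), and without 336 h 12 (17.3%). Against sham in place of control arrays 19 members passed over 24 to 72 h (27.8% of probe sets) and 11 over 168 to 514 h (11%), where CD14, CD2, CD34, CD40, CD81, CD83, CD86 and CD9 lost their call. Of the 19 late calls 3 (CD47, CD5L and CD82) passed without each of the 3 times in turn, and of the 20 calls over 24 to 72 h 12 did, while CD1.1, CD164, CD34, CD38, CD69, CD80, CD8B and CD9 did not. With the numbers as a block 1 member passed over 1 to 4 h (CD151, adjusted p = 0.0274, and 7.75% of probe sets), 21 over 24 to 72 h (39.4%) and 25 over 168 to 514 h (26.7%). The 12 genes that passed in both later windows had the same direction in each.

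CD53, a tetraspanin found on most kinds of leukocyte, had the largest rise of the 41 in both later windows. At 24 h the exposed arrays read 11.54, 11.33 and 11.77, against 9.63, 9.79 and 9.30 in control arrays and 9.70 in the sham array. At 168 h they read 12.35, 12.34 and 11.49, against 9.32, 9.74 and 9.38 in control arrays and 9.13 in the sham array. Every exposed array lay more than 1 log2 unit above every control array at both times. It rose at 24 h by 1.97 ± 0.28 (3.92-fold, adjusted p = 8.17e-07), then by 1.32 ± 0.28 and 1.46 ± 0.28 on the following days, and by 2.58 ± 0.28 at 168 h (5.98-fold, adjusted p = 8.95e-09). At 336 h the exposed arrays read 11.31, 11.28 and 10.80, against 10.39, 10.05 and 10.28 in control arrays, a difference of 0.89 that missed the threshold (adjusted p = 0.0646) although the groups did not overlap. By 514 h the arrays were mixed, at 10.20, 10.37 and 10.12 exposed against 9.86, 10.55 and 10.03 control. The rise over 168 to 514 h (1.18 ± 0.16, adjusted p = 5.7e-07) was 0.49 without 168 h and then did not pass (adjusted p = 0.118). CD45 (PTPRC), the phosphatase that defines leukocytes, rose by 0.74 ± 0.15 over 24 to 72 h and by 0.61 ± 0.15 over 168 to 514 h (adjusted p = 8.26e-05 and 0.00164 in limma).

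Among 11 antigens of myeloid and antigen-presenting cells 6 rose and 1 fell over 24 to 72 h (18.2% and 16.9% of probe sets), and 6 rose and 1 fell over 168 to 514 h (12% and 9.88%). CD14 had the largest rise among them over 24 to 72 h. Its exposed arrays read 10.24, 9.37 and 10.21 at 24 h, against 8.36, 8.41 and 8.21 in control arrays. At 72 h they read 10.81, 10.23 and 11.33, against 9.73, 9.22 and 9.37, and at 168 h 10.11, 9.68 and 9.12, against 8.25, 8.17 and 7.99 in control arrays. The groups stood clear of each other at all of these times, and the control mean was highest at 72 h (9.44) and lowest at 168 h (8.14). Arrays of 72 h and of 168 h were also transcribed in vitro on different days, whose part in the control levels was not tested. The difference over 24 to 72 h was 1.51 ± 0.15 (2.84-fold, adjusted p = 1.19e-10, higher in 9 of 9 pairs). At 168 h it was 1.50 ± 0.25 (adjusted p = 2.89e-05), and at 336 and 514 h 0.31 and -0.10 (adjusted p = 0.681 and 0.88). These values come from the brighter of its probe sets, and the other one differed by 0.02 over 24 to 72 h (adjusted p = 0.83), so the size of the CD14 change is uncertain.

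CD300C, an activating receptor of monocytes, was raised from 24 to 168 h. Its exposed arrays read 9.24, 9.11 and 9.60 at 24 h and 9.28, 9.21 and 9.19 at 72 h, against 8.40, 8.47 and 8.43 and 8.45, 8.58 and 8.42 in control arrays. Over 24 to 72 h all 9 exposed arrays (lowest 8.77) lay above all 9 control arrays (highest 8.58), which held for 2.07% of all probe sets, and the difference was 0.79 ± 0.10 (adjusted p = 5.54e-08). Over 168 to 514 h it was 0.24 (adjusted p = 0.0815, and 0.0217 with the numbers as a block), and without 168 h it was -0.01. CD86, a CD28 ligand of antigen-presenting cells, rose at 24, 48, 72 and 168 h by 0.63, 0.77, 0.73 and 0.69 (each ± 0.19, adjusted p = 0.00541 to 0.00951). Its groups overlapped at none of these times, nor at 336 h, where exposed arrays read 9.17, 9.27 and 8.74 and control arrays 8.53, 8.64 and 8.52 (0.50, adjusted p = 0.149). CD40, through which T cells activate such cells, rose by 0.58 ± 0.11 over 24 to 72 h and by 0.41 ± 0.11 over 168 to 514 h, higher in 9 of 9 pairs in each window. The late call was lost without 168 or 336 h (adjusted p = 0.0528 and 0.0986) and against sham arrays (adjusted p = 0.211). Of single times CD40 passed at 24 h (0.64, adjusted p = 0.013), and with the numbers as a block at 48, 72, 168 and 336 h as well (adjusted p = 0.0065, 0.00861, 0.0335 and 0.0126). CD80, the other CD28 ligand, rose by 0.21 ± 0.06 over 24 to 72 h (adjusted p = 0.00347), and its other probe set did not pass (0.00, adjusted p = 0.975).

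The CD1 genes, which present lipids to T cells, had a more broken course. CD1.1 read 10.15, 10.74 and 9.99 in exposed arrays at 48 h, against 9.12, 9.13 and 9.25 in control arrays, and 10.88, 11.06 and 10.23 at 168 h, against 9.67, 9.99 and 9.07. It rose by 1.12 ± 0.22 and 1.15 ± 0.22 at those times (adjusted p = 0.000592 and 0.000159). At 72 h, between them, the groups overlapped and the difference was 0.30 (adjusted p = 0.475). Without 48 h the 24 to 72 h difference of 0.59 became 0.32 and did not pass (adjusted p = 0.125). At 336 h its difference of 0.67 missed the threshold (adjusted p = 0.0746) and passed with the numbers as a block (adjusted p = 0.00756). CD1E, which stays inside the cell and helps to load lipids, rose at 168 h by 0.87 ± 0.22 (adjusted p = 0.00374), with exposed arrays at 8.03, 6.47 and 6.32 and control arrays at 6.10, 6.23 and 5.88, so that replicate 1 stood far above the other exposed arrays. CD1E is dim, with a mean of 5.93 over the 63 arrays, above 17.2% of probe sets. CD83, a surface protein of mature dendritic cells, rose by 0.54 ± 0.17 at 168 h (adjusted p = 0.0176), where exposed arrays read 9.09, 8.78 and 8.77 and control arrays 8.53, 8.28 and 8.20, and with the numbers as a block it also passed at 336 h (0.50, adjusted p = 0.0338, against 0.0848 without the block). Over 168 to 514 h CD83 rose by 0.28, while its other probe set differed by -0.08. That late call was lost with the mean of its probe sets, with the level of skeletal muscle markers as a covariate and against sham arrays. CD74, the invariant chain that guides MHC class II, passed at no time. Over 168 to 514 h its difference of 0.37 missed the threshold (adjusted p = 0.0839), and it passed with the numbers as a block (adjusted p = 0.0233), with the day of in vitro transcription as a term (adjusted p = 0.0335) and without 514 h (0.52, adjusted p = 0.0401). Its exposed arrays at 336 h read 11.44, 11.74 and 12.61, against 11.17, 11.31 and 11.45 in control arrays (0.62, adjusted p = 0.234).

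CD209, the lectin DC-SIGN of dendritic cells and tissue macrophages, lay higher in exposed arrays at 48 and 168 h and lower at 514 h. At 48 h the exposed arrays read 11.03, 10.93 and 11.10, against 9.93, 9.88 and 10.39 in control arrays, and at 168 h 11.04, 10.98 and 10.76, against 10.24, 9.51 and 10.06. At 514 h they read 9.16, 9.60 and 9.52, against 9.99, 10.93 and 10.39 in control arrays, all 3 below all 3. Of these the 168 h difference passed (0.99 ± 0.34, adjusted p = 0.0381), while those at 48 h (0.96, adjusted p = 0.0688) and 514 h (-1.01, adjusted p = 0.0727) passed only with the numbers as a block (adjusted p = 0.00785 and 0.00846). A moderated F test of whether the exposed minus control difference varied among the 9 times passed for CD209 (adjusted p = 0.0386), as it did for 15 of the 41 members and 18.7% of probe sets.

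CD5L was the 1 member of the myeloid role that fell in either later window. It encodes a secreted protein of tissue macrophages, not a membrane antigen, and owes its symbol to its likeness to CD5. In exposed arrays it read 7.52, 7.04 and 7.62 at 24 h, against 8.71, 8.08 and 9.29 in control arrays, and 7.35, 7.72 and 7.74 at 48 h, against 9.15, 8.78 and 8.66. At 72 h the groups were level, at 9.71, 8.96 and 8.38 exposed and 9.83, 9.00 and 8.23 control. From 168 h on they were apart again, at 6.26, 6.67 and 6.87 exposed against 8.05, 8.25 and 8.07 control at 168 h, and 6.63, 6.43 and 7.20 exposed against 7.95, 8.66 and 8.52 control at 514 h. CD5L fell by 1.30, 1.26, 1.53, 1.21 and 1.63 (each ± 0.31) at 24, 48, 168, 336 and 514 h (adjusted p = 0.00131, 0.00648, 0.000386, 0.016 and 0.00107) and differed by -0.01 at 72 h (adjusted p = 0.996). Its call at 336 h was lost in 4 of 6 fits that left out 1 array (adjusted p up to 0.116). Over 168 to 514 h all 9 exposed arrays (highest 7.20) lay below all 9 control arrays (lowest 7.83), which held for 0.529% of probe sets, with a difference of -1.46 ± 0.18 (2.74-fold, adjusted p = 7.51e-08). Its other probe set passed in both windows, with differences of -0.36 and -0.63, and differed by 0.03 at 72 h.

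**Figure D2:**
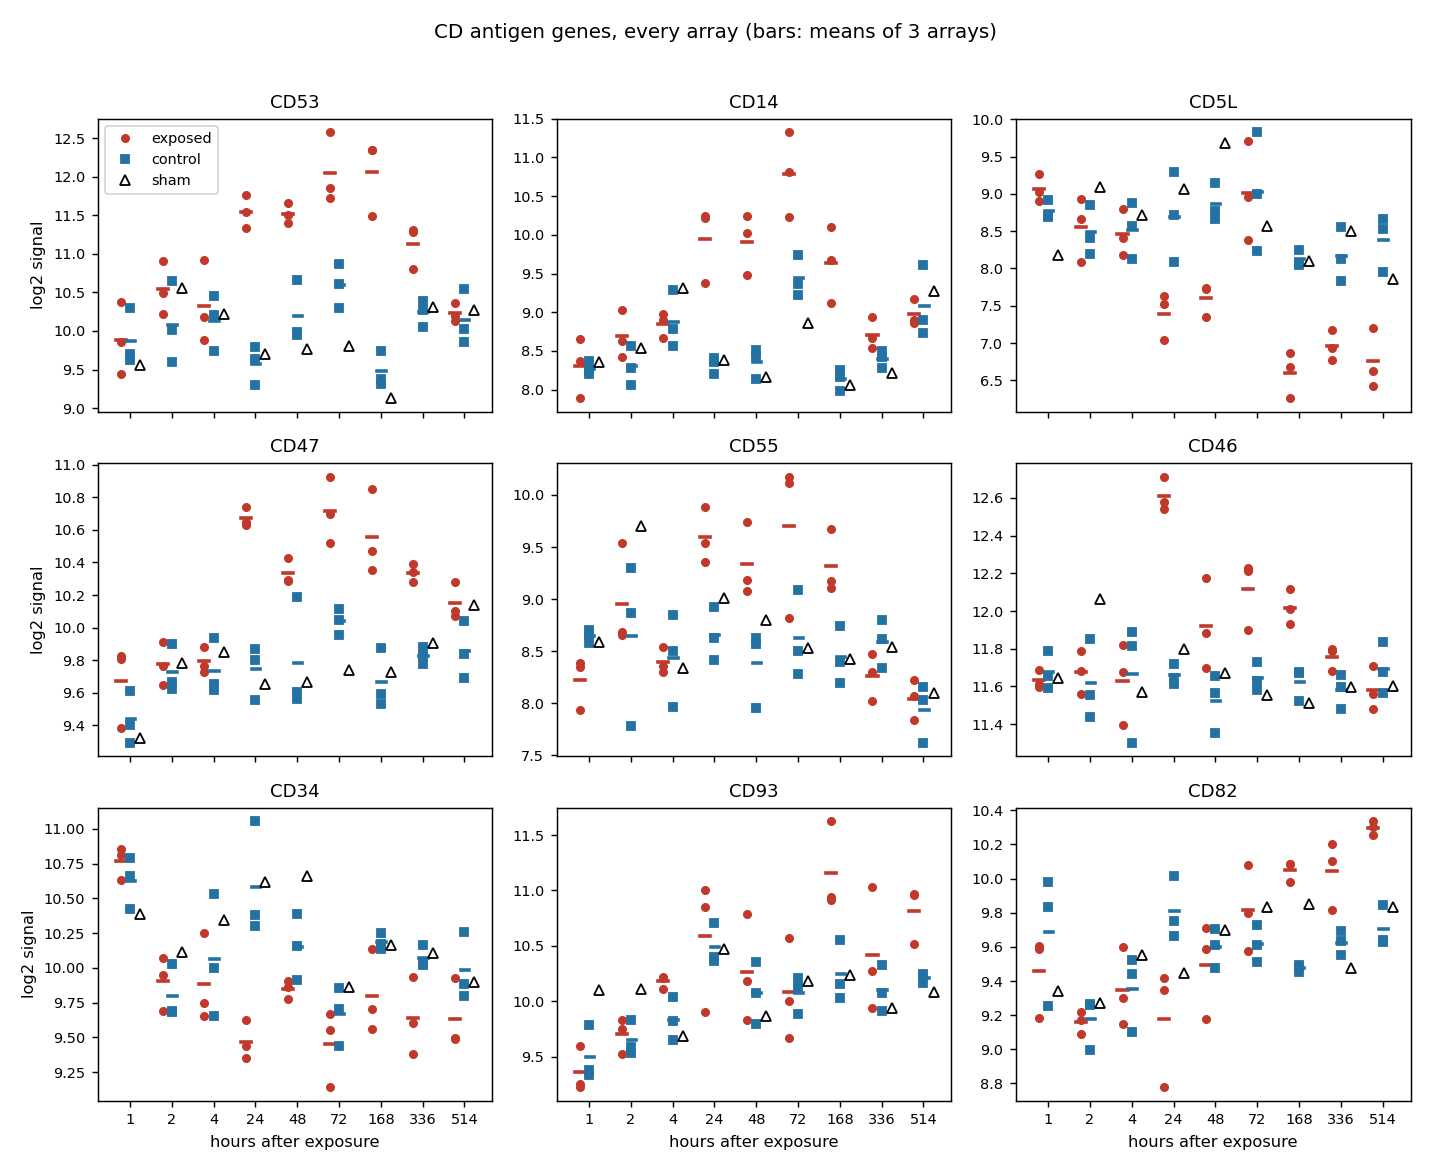
Log2 signal of 9 CD antigen genes in every array at the 9 times in hours, exposed arrays (red circles), control arrays (blue squares) and the sham array (open triangle) side by side, with bars at the means of 3 arrays. CD53 and CD14 separate at 24 to 168 h and are mixed at 514 h, CD5L separates downwards from 24 h on except at 72 h, and CD82 lies lower in exposed arrays at 24 h and higher at 168 to 514 h.

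Of 11 T and NK cell antigens 2 rose over 24 to 72 h (CD69 and CD8B), 3 rose over 168 to 514 h (CD2, CD40LG and CD69), and 0 fell in limma in either window, where 18.2% and 12% of all probe sets rose. The chains of the T cell receptor complex, CD3D, CD3E, CD3G and CD247, and the CD8A co-receptor chain passed at no time and in no window against control arrays without a block. With the numbers as a block CD3D and CD3G passed at 72 h (adjusted p = 0.0358 and 0.0425), CD3D and CD3E over 168 to 514 h (0.27 and 0.34, adjusted p = 0.0302 and 0.0493, against 0.0909 and 0.253 without it), and CD8A in neither. CD3E read 7.30, 7.33 and 8.72 in exposed arrays at 1 h, against 7.26, 7.42 and 8.65 in control arrays, and CD3G read 7.52, 7.53 and 8.94, against 7.25, 7.57 and 8.91. Replicate 3 stood more than 1 log2 unit above the others on both sides. At 4 h CD3E read 8.91, 8.00 and 8.94 in exposed arrays, against 8.67, 7.74 and 9.07, with replicate 2 low on both sides. At 2 h the numbers did not go together, with 8.41, 7.78 and 8.00 in exposed arrays, against 7.63, 8.22 and 7.77, so that replicate 1 was the highest exposed and replicate 2 the highest control array.

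At 72 h several T cell genes were high in control sites as well. Arrays of 4, 72 and 514 h shared a day of in vitro transcription. A level at 72 h against times of other days therefore cannot be told apart from that day. In control arrays the mean level of 7 T and NK cell markers that are not members was 7.05, 7.30 and 6.98 at 4, 72 and 514 h. At the other times it was 6.56 to 6.74. CD3E read 9.54, 9.34 and 9.58 in exposed arrays, 8.91, 9.02 and 8.70 in control arrays and 7.84 in the sham array. CD8A read 9.64, 8.81 and 9.63 in exposed arrays, 9.16, 8.63 and 8.63 in control arrays and 7.63 in the sham array. In 8 of the 11 genes all 3 control arrays lay above the sham array of that time, which held for 18.9% of all probe sets. It held for 7 genes at 168 h (29% of probe sets), 0 at 514 h (31%) and 4 or 5 at each other time (24.7%, 23.5%, 17.3%, 27.1%, 21.3% and 21% at 1, 2, 4, 24, 48 and 336 h), with 1 sham array a time. Set against the sham arrays in place of the control arrays, the exposed arrays of 24 to 72 h were higher by 1.00 for CD8A (adjusted p = 0.0068) and by 0.76 for CD3E (adjusted p = 0.041), where the differences from control arrays were 0.32 and 0.22 (adjusted p = 0.239 and 0.443). Over 1 to 4 h the exposed minus sham differences were 0.38 for CD8A and 0.59 for CD3E (adjusted p = 0.696 and 0.42). The exposed minus control difference at 72 h was 0.61 ± 0.35 for CD3E (adjusted p = 0.321), 0.71 ± 0.36 for CD3G (adjusted p = 0.243), 0.49 ± 0.20 for CD3D (adjusted p = 0.115) and 0.55 ± 0.35 for CD8A (adjusted p = 0.395). Exposed and control arrays did not overlap for CD3D, CD3E and CD3G at that time. Across the 41 members 21 had all exposed arrays above all control arrays at 72 h (13.8% of probe sets) and 0 had them below (12.7%).

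The T cell antigens that passed without a block moved by less than 1 log2 unit. CD69, an early activation antigen of lymphocytes that resident T cells also keep, read 7.34, 7.35 and 7.74 in exposed arrays at 72 h, against 7.03, 6.89 and 6.94 in control arrays, and 7.63, 7.33 and 7.24 at 168 h, against 6.91, 6.99 and 6.94. It rose by 0.52 ± 0.10 and 0.46 ± 0.10 at these times (adjusted p = 0.000247 and 0.000539), and its 24 to 72 h difference did not pass without 72 h (0.11, adjusted p = 0.26). CD8B, the second CD8 chain, read 8.58, 8.39 and 8.43 in exposed arrays at 72 h, against 8.01, 7.86 and 7.82 in control arrays, and rose by 0.57 ± 0.15 (adjusted p = 0.00962). With the numbers as a block it also passed at 168 h and over 168 to 514 h (adjusted p = 0.0334 and 0.0406, against 0.0995 and 0.115 without it). CD4, the helper T cell co-receptor, read 6.14, 6.22 and 6.29 in exposed arrays and 5.76, 5.93 and 5.74 in control arrays at 72 h, and rose by 0.41 ± 0.13 (adjusted p = 0.0277). Its signal is dim, with a mean of 5.99 over the 63 arrays, above 18.0% of probe sets. CD2, an adhesion receptor of T and NK cells, read 8.79, 9.05 and 7.97 in exposed arrays at 336 h, against 7.45, 7.40 and 7.44 in control arrays, and its difference of 1.18 ± 0.44 passed only with the numbers as a block (adjusted p = 0.022, against 0.147 without it), as did that of 24 to 72 h (0.48, adjusted p = 0.038 and 0.149). Over 168 to 514 h CD2 rose by 0.75 ± 0.26 (adjusted p = 0.0289), and CD40LG, the T cell ligand of CD40, by 0.16 ± 0.05 (adjusted p = 0.0285). CD40LG is dim, with a mean of 5.27 over the 63 arrays, above 8.85% of probe sets. With the day of in vitro transcription as a term neither CD2 nor CD40LG passed (adjusted p = 0.0543 and 0.0563). Leaving out 1 array, the call was lost in 6 of 18 fits for CD2 and 6 of 18 for CD40LG (adjusted p up to 0.102 and 0.108). Against sham arrays CD2 did not pass (0.65, adjusted p = 0.278). Without 168 or 336 h CD2 did not pass (adjusted p = 0.154 and 0.258), nor CD40LG without 514 h (adjusted p = 0.319). CD8B and CD8A lie next to each other in the Sscrofa11.1 gene order, and whether their differences differ was not tested.

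**Figure D3:**
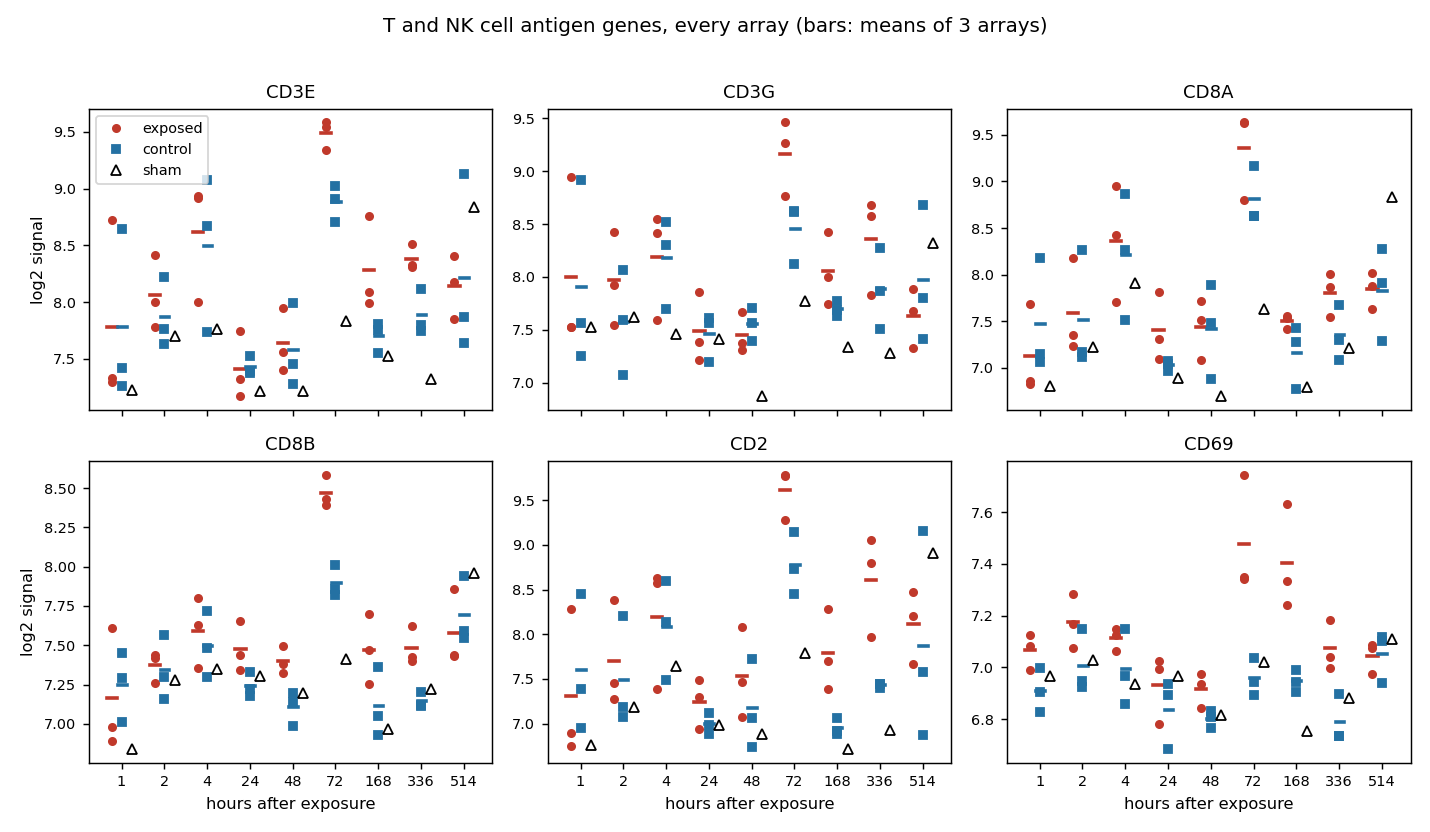
Log2 signal of 6 T and NK cell antigen genes in every array at the 9 times in hours, with exposed arrays (red circles), control arrays (blue squares) and the sham array (open triangle), and bars at the means of 3 arrays. For CD3E, CD8A and CD2 the control mean is highest at 72 h, and at 1 and 4 h both groups of CD3E spread widely. Arrays of 4, 72 and 514 h shared a day of in vitro transcription.

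Of 3 B cell antigens 2 rose over 24 to 72 h, where 18.2% of probe sets rose. CD180, a Toll-like receptor relative of B cells that monocytes and dendritic cells also carry, read 7.22, 7.43 and 7.80 in exposed arrays at 72 h, against 6.84, 6.41 and 6.36 in control arrays and 6.15 in the sham array. It rose at 48, 72 and 336 h by 0.46, 0.95 and 0.49 (each ± 0.15, adjusted p = 0.0387, 2.24e-05 and 0.047). The call at 336 h was lost with the day of in vitro transcription as a term, and in 5 of 6 fits that left out 1 array (adjusted p up to 0.285). CD38, an ecto-enzyme of plasma cells and activated leukocytes, read 6.85, 6.87 and 7.49 in exposed arrays at 72 h and 6.24, 6.47 and 6.12 in control arrays, and rose by 0.79 ± 0.19 (adjusted p = 0.00369). CD38 also passed at 24 and 168 h with the numbers as a block (0.44 and 0.48, adjusted p = 0.0318 and 0.0278). CD79B, a signalling chain of the B cell receptor, read 5.18 to 5.77 in exposed arrays over 24 to 72 h and 5.30 to 5.98 in control arrays (-0.05, adjusted p = 0.787). CD38 and CD79B are dim, with means of 6.25 and 5.52 over the 63 arrays, above 21.8% and 11.8% of probe sets. CD180 is near that range, with a mean of 6.441, above 25.1% of probe sets, where the filter on dim probe sets lay at 6.438. Of 8 other B and plasma cell genes listed 3 were measured. Of these 2 rose in both later windows, where 18.2% and 12% of probe sets rose. Among them was the antibody joining chain JCHAIN, by 1.20 ± 0.46 and 2.16 ± 0.46 (adjusted p = 0.0401 and 0.000533). Over 1 to 4 h 1 of the 3 measured genes already passed upwards, where 5.48% of probe sets passed in either direction.

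Of 3 complement regulators 2 rose over 24 to 72 h and 0 passed over 168 to 514 h in limma, where 1 had an unadjusted p under 0.05. Of all probe sets 18.2% rose over 24 to 72 h, and 12% rose and 9.88% fell over 168 to 514 h. CD46, a cofactor in the inactivation of C3b and C4b, read 12.71, 12.54 and 12.58 in exposed arrays at 24 h, against 11.65, 11.61 and 11.72 in control arrays. CD55, which speeds the decay of the convertases, read 9.54, 9.36 and 9.89 in exposed arrays at that time, against 8.42, 8.62 and 8.92. Neither gene's groups overlapped. CD46 rose by 0.95 ± 0.12 at 24 h (adjusted p = 1.4e-07) and by 0.40, 0.47 and 0.40 at 48, 72 and 168 h. CD55 rose by 0.94, 0.95, 1.08 and 0.87 (each ± 0.30, adjusted p = 0.0165 to 0.0407) at those 4 times. These are values of the brightest of its 5 probe sets, of which 2 passed over 24 to 72 h. That one differed by 0.99 and the other 4 by 0.22 to 0.73, and the mean of the 5 by 0.55 (adjusted p = 0.0096), so the size of the CD55 change is uncertain. At 336 and 514 h neither passed, with differences of 0.18 and -0.11 for CD46 and -0.32 and 0.11 for CD55. CD59, which blocks the last step of the membrane attack complex, read 11.74, 11.93 and 11.83 in exposed arrays at 24 h, against 11.88, 11.99 and 12.01 in control arrays. Its 24 to 72 h difference was -0.12 ± 0.08 (adjusted p = 0.263), higher in 0 of 9 pairs. CD59 passed downwards at 168 h with the numbers as a block (-0.24, adjusted p = 0.0447, against 0.235 without it) and over 168 to 514 h (-0.15, adjusted p = 0.0254, against 0.174).

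Among 4 broadly made surface proteins 3 rose over 24 to 72 h and 2 over 168 to 514 h, where 18.2% and 12% of probe sets rose. CD47, the ligand of SIRP-alpha that restrains phagocytosis, passed at every time from 24 to 336 h, the last not with the day of in vitro transcription as a term. Its call at 336 h was also lost in 5 of 6 fits that left out 1 array (adjusted p up to 0.108). In exposed arrays CD47 read 10.63, 10.74 and 10.65 at 24 h and 10.28, 10.39 and 10.34 at 336 h, against 9.80, 9.87 and 9.56 and 9.82, 9.78 and 9.88 in control arrays. All 9 exposed arrays lay above all 9 control arrays in both later windows, which held for 2.07% and 0.783% of probe sets. The differences were 0.72 ± 0.08 and 0.57 ± 0.08 (adjusted p = 1.87e-09 and 7.76e-07), and at 514 h 0.29 (adjusted p = 0.227) with the groups still apart. The dimmest of its 3 probe sets did not pass in either window (-0.09 and 0.10). CD58, the partner of CD2, read 8.88, 8.99 and 8.66 in exposed arrays at 48 h, against 8.17, 8.16 and 8.33 in control arrays, and rose by 0.52 ± 0.08 over 24 to 72 h (adjusted p = 7.07e-07), higher in 9 of 9 pairs in this window and the next. CD164, a sialomucin, rose at 24 h by 0.53 ± 0.12 (adjusted p = 0.000608), and without that time its 24 to 72 h difference of 0.22 became 0.06 (adjusted p = 0.679). CD99, a glycoprotein of leukocyte passage through vessel walls whose RefSeq match here is a non-coding entry, differed by -0.08 ± 0.07 over 24 to 72 h and passed only at 24 h with the numbers as a block (-0.25, adjusted p = 0.0277, against 0.123 without it).

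Among the vessel and stromal antigens CD34 fell and CD93 rose. CD34 read 9.35, 9.44 and 9.62 in exposed arrays at 24 h, against 10.30, 10.38 and 11.06 in control arrays and 10.62 in the sham array. It fell at 24 h by 1.11 ± 0.20 (2.16-fold, adjusted p = 2.61e-05), the only single time that passed without a block. The block brought in 168 and 336 h (-0.39 and -0.43, adjusted p = 0.0202 and 0.0248). It was higher in 0 of 9 pairs of both later windows, with differences of -0.54 ± 0.11 and -0.39 ± 0.11 (adjusted p = 0.000178 and 0.0103), of which the first did not pass without 24 h (-0.26, adjusted p = 0.205). The second did not pass without 168 h or without 336 h (-0.39 and -0.37, adjusted p = 0.0625 and 0.0632), nor against sham arrays (-0.36, adjusted p = 0.152). CD46, with 1 gene between it and CD34 in the Sscrofa11.1 order, rose at 24 h. CD93, a receptor of endothelial and myeloid cells, read 10.94, 10.92 and 11.63 in exposed arrays at 168 h, against 10.03, 10.16 and 10.55 in control arrays, and 10.97, 10.96 and 10.52 at 514 h, against 10.16, 10.23 and 10.24. It rose by 0.91 ± 0.25 at 168 h (adjusted p = 0.00741) and by 0.61 ± 0.14 over 168 to 514 h (adjusted p = 0.00147, 9 of 9 pairs), and without 168 h the window did not pass (adjusted p = 0.0905). At 514 h the difference passed with the numbers as a block (adjusted p = 0.0431, against 0.154 without it). The other probe set of CD93 differed by -0.07 in that window. CD200, an inhibitory ligand of nerve, follicle and endothelial cells, passed at 514 h (0.48 ± 0.15, adjusted p = 0.045), where exposed arrays read 7.84, 7.82 and 7.53 and control arrays 7.30, 7.08 and 7.38. That call was lost in 5 of 6 fits that left out 1 array (adjusted p up to 0.204).

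Tetraspanins organise membrane microdomains. Among 5 of them CD63 rose and CD9 fell over 24 to 72 h, and CD82 rose and CD9 and CD81 fell over 168 to 514 h. Of all probe sets 18.2% rose and 16.9% fell in the first of these windows, and 12% and 9.88% in the second. CD82, known for restraining cell motility, read 9.42, 9.35 and 8.78 in exposed arrays at 24 h, against 10.02, 9.66 and 9.75 in control arrays, and fell by 0.63 ± 0.16 (adjusted p = 0.00243). At 168 h it read 10.08, 10.09 and 9.98 in exposed arrays, against 9.49, 9.48 and 9.45, and at 514 h 10.30, 10.25 and 10.34, against 9.63, 9.64 and 9.85. It rose at those times by 0.57 ± 0.16 and 0.59 ± 0.16 (adjusted p = 0.00947 and 0.0206), and with the numbers as a block also at 336 h (0.42, adjusted p = 0.0485, against 0.161 without it). Its call at 514 h was lost in 5 of 6 fits that left out 1 array (adjusted p up to 0.0961). Of the 41 members CD82 alone passed upwards at 1 time and downwards at another without a block, and with the block CD209 did so too. CD9, a partner of integrins, read 12.26, 12.30 and 12.61 in exposed arrays at 168 h, against 13.01, 13.01 and 12.84 in control arrays, and fell by 0.57 ± 0.13 (adjusted p = 0.00212). Its 24 to 72 h difference (-0.20 ± 0.08, adjusted p = 0.0435) lost its call in 10 of 18 fits that left out 1 array (adjusted p up to 0.126), and without 24 or 72 h (adjusted p = 0.376 and 0.124). CD9 also passed at 24 h with the numbers as a block (-0.33, adjusted p = 0.0197, against 0.0649 without it). Its late window did not pass without 168 h (-0.10, adjusted p = 0.624). CD63, a tetraspanin of lysosomes and granules, rose by 0.20 ± 0.04 over 24 to 72 h (adjusted p = 0.000196), with exposed arrays at 13.28 to 13.50 and control arrays at 13.05 to 13.28. CD63 passed at 24 h too with the numbers as a block (0.18, adjusted p = 0.048). CD81 fell by 0.25 ± 0.09 over 168 to 514 h (adjusted p = 0.0425). That call was lost in 12 of 18 fits that left out 1 array (adjusted p up to 0.0917), without 336 or 514 h (adjusted p = 0.261 and 0.33), with the day of in vitro transcription as a term (adjusted p = 0.0863) and against sham arrays (adjusted p = 0.054). CD81 passed at 514 h with the numbers as a block (-0.43, adjusted p = 0.0263, against 0.105 without it). CD151 passed at no time and, without a block, in no window.

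**Figure D4:**
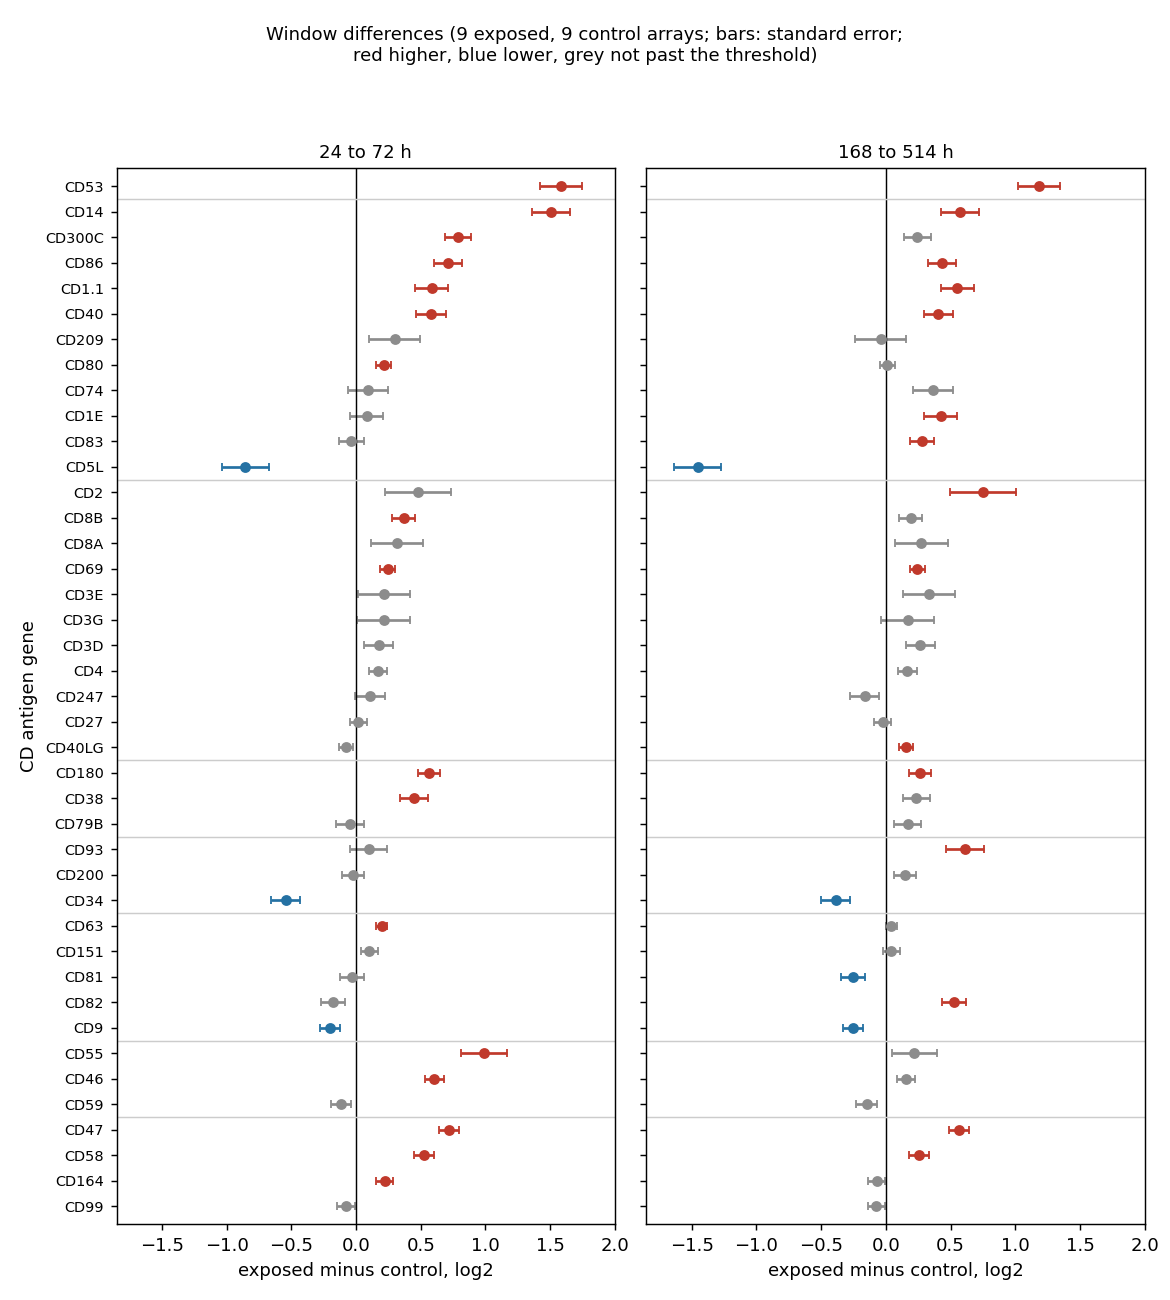
Exposed minus control difference in log2 signal, with its standard error, for the 41 CD antigen genes averaged over 24 to 72 h (left) and 168 to 514 h (right), 9 exposed and 9 control arrays each. CD53 has the highest value in both windows (1.59 and 1.18) and CD5L the lowest (-0.85 and -1.46).

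Whether a difference itself changed between windows was tested directly. From 1 to 4 h to 24 to 72 h, 11 members increased their difference and 2 decreased it (10.1% and 6.43% of probe sets). From 24 to 72 h to 168 to 514 h, 2 increased and 4 decreased (4.45% and 4%). The differences of CD14 (-0.94 ± 0.21, adjusted p = 0.00276), CD55 (-0.77 ± 0.25, adjusted p = 0.0459), CD300C (-0.54 ± 0.14, adjusted p = 0.0127) and CD46 (-0.45 ± 0.10, adjusted p = 0.00303) came down. Those of CD82 (0.71 ± 0.13, adjusted p = 0.000426) and CD40LG (0.23 ± 0.08, adjusted p = 0.0479) went up. For CD53 (-0.40, adjusted p = 0.327) and CD5L (-0.60, adjusted p = 0.145) the change between the later windows did not pass.

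Of the 41 genes 16 had several probe sets. Over 24 to 72 h all probe sets passed in 6 of these genes (CD164, CD300C, CD40, CD46, CD53 and CD5L), some but not all in 4 (CD14, CD47, CD55 and CD80) and none in 6. Over 168 to 514 h all passed in 4 (CD40, CD53, CD5L and CD82), some but not all in 4 (CD14, CD47, CD83 and CD93) and none in 7. In CD300C the other probe set passed late (0.50, adjusted p = 0.00486) where the brighter one did not (0.24, adjusted p = 0.0815).

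**Figure D5:**
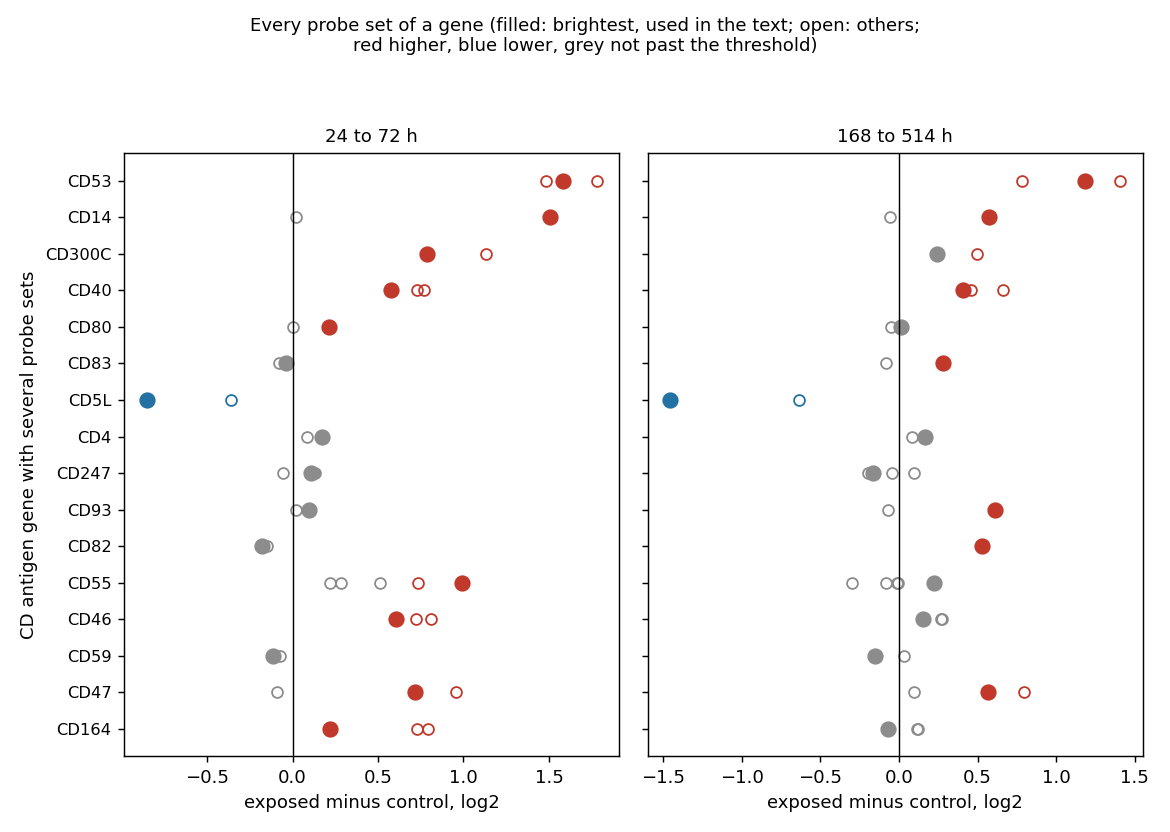
Exposed minus control difference in log2 signal for every probe set of the 16 CD antigen genes with several, over 24 to 72 h (left) and 168 to 514 h (right), the brightest filled and the others open. All probe sets of CD53, CD40 and CD5L lie on 1 side, while CD14 has 1 probe set at 1.51 and the other at 0.02 in the earlier window.

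CD antigens that carry other gene symbols were read beside the members. Their counts stand against 18.2% of probe sets that rose and 16.9% that fell over 24 to 72 h, and 12% and 9.88% over 168 to 514 h. Of 23 measured leukocyte antigens of this kind 14 rose and 1 fell over 24 to 72 h, and 13 rose and 1 fell over 168 to 514 h. CCR1 had the largest rise among them, by 2.88 ± 0.16 over 24 to 72 h and by 1.59 ± 0.16 over 168 to 514 h. TLR2 (CD282), a receptor of bacterial lipopeptides, rose by 1.96 ± 0.21 and TLR4 (CD284), which senses lipopolysaccharide with CD14, by 1.47 ± 0.14 in the earlier window. ITGB2 (CD18), the beta chain of leukocyte integrins, rose by 1.44 ± 0.16. NCAM1 (CD56), an adhesion protein of NK cells, nerve and muscle, fell by 1.32 ± 0.12 and 1.18 ± 0.12. Of 21 endothelial and platelet antigens 10 rose and 1 fell (VWF, -0.38 ± 0.10) over 24 to 72 h, and 10 rose over 168 to 514 h. Of these 2 had already risen over 1 to 4 h, when 0 of the 41 members passed: the selectin SELE (CD62E), by 1.39 ± 0.16 (adjusted p = 8.13e-08), and ICAM1 (CD54), by 0.76 ± 0.16 (adjusted p = 0.00144), both receptors by which endothelium holds leukocytes. Of 23 stromal and epithelial antigens 6 rose and 4 fell over 24 to 72 h, and 6 rose and 1 fell over 168 to 514 h. DPP4 (CD26), a peptidase of T cells and fibroblasts, had the largest rise in each window, at 0.64 ± 0.17 and 1.75 ± 0.17. The largest falls were those of SDC1 (-0.92 ± 0.16) and BMPR1A (-0.71 ± 0.11) in the earlier window and EGFR (-0.33 ± 0.10) in the later one.

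Marker lists of cell types were read beside these results. Their counts stand against 18.2% of probe sets that rose and 16.9% that fell over 24 to 72 h, and 12% and 9.88% over 168 to 514 h. Measured were 9 of 13 listed macrophage and neutrophil markers, 7 of 14 T and NK cell markers and 5 of 12 keratinocyte markers. For fibroblasts, adipocytes and skeletal muscle these were 7 of 9, 8 of 11 and 14 of 20. Macrophage and neutrophil markers rose in 9 of 9 genes in both later windows, and their mean level was 9.87 to 11.27 in exposed arrays over 24 to 72 h, against 8.45 to 9.76 in control arrays. At 514 h it was 9.98 to 10.39 in exposed arrays, against 8.97 to 9.82 in control arrays, when 3 of the 9 markers passed, the median of the 9 differences was 0.36, and CD14 and CD53 did not pass. Of 7 T and NK cell markers 1 rose over 24 to 72 h and 0 passed in the late window in limma, and their mean level at 72 h was 7.48 to 7.78 in exposed arrays, against 7.23 to 7.36 in control arrays. Keratinocyte markers fell in 4 of 5 genes over 24 to 72 h, while 3 fell and 1 rose over 168 to 514 h, and their mean level at 168 h was 9.52 to 10.33 in exposed arrays, against 12.89 to 13.12 in control arrays. At 514 h it was 13.02 to 13.44 in exposed arrays, against 12.74 to 12.90 in control arrays, when 1 of the 5 markers passed, upwards, while at 336 h 1 rose and 1 fell. Fibroblast markers fell in 4 of 7 genes in both later windows, and adipocyte markers in 7 of 8 over 168 to 514 h. Skeletal muscle markers averaged 7.74 to 9.68 in exposed arrays at 24 h and 11.00 to 12.28 in control arrays, so the groups were fully apart. At that time 2 of the 14 markers passed downwards (12.7% of probe sets). At 168 h they averaged 7.58 to 7.59 in exposed arrays and 7.75 to 13.48 in control arrays. Results with this level as a covariate are given for windows only. With the muscle level as a covariate 19 members passed in each later window (35.5% and 21.2% of probe sets), of which 19 and 18 were among those above. The part of the other lists in the results was not tested.

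Over the 9 times together 0 of the 41 members passed between sham and control arrays in limma (0.0208% of probe sets did), and 4 had an unadjusted p under 0.05. The largest difference among these was that of CD3E, at -0.36 ± 0.16 (adjusted p = 0.524). The 11 members that passed at no time and in no window against control arrays without a block were CD27, CD247, CD3D, CD3E, CD3G, CD8A, CD74, CD79B, CD59, CD99 and CD151. With the block CD27, CD247, CD79B and CD8A passed nowhere, and CD8A passed against sham arrays over 24 to 72 h.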

How the data were processed

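RNA of 63 skin biopsies was measured on Affymetrix Porcine arrays. The authors deposited log2 values per probe set, and RMA and Partek are named per the submitters' processing notes, with versions not given. Values ran from 4.05 to 14.54. Of 24123 probe sets 124 controls were left out. GEO's platform annotation gave 1 symbol to 10099 probe sets and several to 198, and 13826 were not listed. All 41 member genes matched RefSeq (Sscrofa11.1). With R 4.3.3 and limma 3.58.1, 1 mean was fitted per group (27 groups, 36 residual degrees of freedom), and contrasts were tested two-sided at each time, over 3 windows of 3 times, between windows and between sham and control arrays. The test was checked on simulated data with independent normal noise. These held no shared animal, day or muscle content, so the check covers the code and not the fit of its assumptions to these arrays. The number of arrays limits the precision. In vitro transcription took 5 days, and 1, 24 and 168 h, then 2, 48 and 336 h, then 4, 72 and 514 h were done on days of their own, so levels in different ones of these 3 sets of times also differ by day.

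The members and gene lists were chosen with earlier results of these data known. Named genes were the largest changes past the threshold per window (10 up, 10 down), per time (2 up, 2 down) and per role (3). For other lists up to 4 up and 2 down were picked per window, and not all of these are printed. Other genes were named after their values were seen, namely PTPRC, JCHAIN, CD4, CD8A, CD27, CD59, CD63, CD74, CD79B, CD80, CD83, CD99, CD151, CD1E, CD209, CD247 and the CD3 chains. CD1.1 joined the myeloid role after the files were read. Same-numbered exposed and control arrays shared a day of sacrifice at all 9 times, per the labels, and deviated together in part (mean correlation 0.27, over 0.1 in 21 of 27 pairs), so the number was taken as a partial pairing. Every pair was over 0.1 at 5 of the 9 times, and at 48 h each exposed array correlated best with a control array of another number. Alternatives were another normalization, a filter on dim probe sets, the mean of probe sets, a size threshold, terms for muscle content and transcription day, a replicate block, sham arrays as controls, single times fitted alone and leaving out each array; windows without 1 of their times were added after seeing the data.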

Additional observations from a re-analysis of the deposited data

Results flagged for a closer look

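The differences below changed between windows by a direct test of the change (limma, adjusted over all probe sets), and no explanation was tested. From 1 to 4 h to 24 to 72 h the exposed minus control difference increased for CD14 (1.37), CD53 (1.36), CD55 (1.04), CD300C (0.81), CD1.1 (0.69), CD86 (0.66), CD180 (0.65), CD58 (0.62), CD46 (0.61), CD47 (0.61) and CD8B (0.35). It decreased for CD5L (-0.96) and CD34 (-0.56). From 24 to 72 h to 168 to 514 h it decreased for CD14 (-0.94), CD55 (-0.77), CD300C (-0.54) and CD46 (-0.45), and increased for CD82 (0.71) and CD40LG (0.23). The 2 comparisons share the 24 to 72 h arrays.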

How the results depend on the processing

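No difference picked by the naming rule changed sign under the alternatives run. Other differences in the text, such as those of CD209, CD1E, CD83 and CD93 at 168 h, were not followed gene by gene with 1 array left out. The lack of a lost call beside them therefore says nothing of their stability. With the replicate block 9 members passed at 336 h, 6 at 514 h, 1 over 1 to 4 h (CD151), 21 over 24 to 72 h and 25 over 168 to 514 h, the later windows keeping all 20 and all 19 of the calls above; 20 of 27 exposed arrays correlated best with the control array of their own number. Quantile normalization again gave 5 at 514 h, the mean of all probe sets gave 1 at 1 h, and sham arrays as controls gave 11 over 168 to 514 h. A log2 difference of at least 1 left 4, 4, 3, 4, 1 and 1 members at 24, 48, 72, 168, 336 and 514 h, and 2 in each later window. The 6 arrays of a time alone gave 6 at 48 h, 9 at 72 h and 5 at 336 h. Chosen after seeing the data, the late window held 5 members without 168 h and 12 without 336 h. Leaving out 1 array gave 0 to 0 members at 1, 2 and 4 h and over 1 to 4 h, 9 to 15 at 24 h, 5 to 13 at 48 h, 9 to 12 at 72 h, 10 to 17 at 168 h, 0 to 4 at 336 h, 1 to 2 at 514 h, 19 to 21 over 24 to 72 h and 15 to 21 over 168 to 514 h. The cause of these shifts was not tested, except that a size threshold can only take calls away. The filter at 6.44 log2 removed 5 members, namely CD1E, CD38, CD4, CD40LG and CD79B, and signal over background is not given for RMA values.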

Other observations

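Histology scores in the labels were set beside the late exposed arrays as values. The labels give a normal total of 13, and all 9 control and all 3 sham arrays of 168 to 514 h had that total and a score of 1 for inflammatory cells, so 1 is the score of unexposed skin. The 9 exposed arrays had totals of 5 to 10, and scored 0 for inflammatory cells in 6 arrays and 1 in 3. At 336 h CD53 read 11.31 and 11.28 in the exposed arrays scored 0 and 10.80 in the one scored 1, and at 514 h 10.37 in the one scored 0 and 10.20 and 10.12 in those scored 1. CD2 read 8.79 and 9.05 against 7.97 at 336 h, and 8.48 against 7.66 and 8.20 at 514 h, in arrays scored 0 against 1. CD14 read 8.53 and 8.94 against 8.67 at 336 h, and 9.17 against 8.90 and 8.85 at 514 h. CD86 read 9.17 and 9.27 against 8.74 at 336 h, and 8.55 against 8.49 and 9.01 at 514 h. All 3 exposed arrays of 168 h scored 0, so no such comparison exists there, and none of these values was tested.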
